A study of Mus musculus with 4 samples.

Results

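Complex I, the NADH dehydrogenase of the mitochondrial respiratory chain, is described here through the messenger RNAs of its nuclear-encoded subunits and of the Ndufaf assembly factors in mouse retinal ganglion cells, which send the axons of the optic nerve to the brain. Gene identifiers were matched to mouse symbols, and every symbol that starts with Ndufa, Ndufb, Ndufc, Ndufs or Ndufv was taken, which gave 51 of 78334 identifiers. These were 37 subunits, 8 assembly factors (Ndufaf1 to Ndufaf8), 4 processed pseudogenes and 2 genes with a subunit-like name that are not counted as subunits, Ndufa4 and Ndufa4l2. Ndufb1-ps was kept as a subunit, because RefSeq lists that symbol as a synonym of the protein-coding Ndufb1. In the counts, 47 of the 51 passed the filter on low counts, among them all 37 subunits and all 8 assembly factors.

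All eyes came from WT mice of both sexes and all had an optic nerve crush (ONC). In 1 group eyes received an adeno-associated virus of serotype 2 (AAV2) with an anti-miR132-3p shRNA (a short hairpin RNA that targets the microRNA miR-132-3p), and control eyes received an AAV2 with a scramble shRNA. Both vectors also made the red fluorescent protein mCherry. Virus was given into the eye at 8 weeks of age, 2 µl per eye and 2 weeks ahead of the crush, with cells taken 2 weeks after it. Each condition drew on a pool of 10 retinas. Thy1 panning and a sort for mCherry gave about 5000 cells for each library, with about 40% of ganglion cells transduced. There were 2 libraries with the anti-miR132-3p shRNA and 2 with the scramble shRNA, and the labels do not tie them to separate animals. Columns named mCherry were assigned to the scramble shRNA by exclusion, since the others name miR132, and every direction below rests on that.

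Complex I takes electrons from NADH, passes them along a chain of iron-sulfur clusters to ubiquinone, and pumps protons across the inner mitochondrial membrane. It is L-shaped. The matrix arm holds the N module, where NADH is oxidised, and the Q module, where ubiquinone is reduced, and the membrane arm holds the proton pumps. A core of subunits is conserved from bacteria, part of it encoded in mitochondrial DNA, and the accessory subunits were added around it. Assembly factors build the modules and leave before the enzyme is complete. Retinal ganglion cells are known for a high demand for respiration, and mutations in mitochondrial complex I genes cause Leber hereditary optic neuropathy in people.

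The microRNA that the tested hairpin targets has the mature sequence below, from RefSeq (mouse build GRCm38.p6, chr11:75173723-75173744, + strand). Its seed, bases 2 to 8, which pairs with target messages, is in capitals, and it is shown because the search for target sites in the members' messages, described further on, rests on it.
mmu-miR-132-3p: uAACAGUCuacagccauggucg

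The anti-miR132-3p libraries held 1732416 and 1731199 counts, against 1845090 and 1846637 counts in the scramble libraries. The libraries of a pair differed by no more than sampling noise: the chi-square of their counts per degree of freedom was 1.00 for the anti-miR132-3p pair (p = 0.486) and 1.02 for the scramble pair (p = 0.0954), and 4.01 to 4.03 for pairs across the groups. A pair was thus treated as 1 sample, which leaves n = 1 in each group, no SD is given and no difference has a replicate check. Values of a group are sums over its pair in CPM (read counts divided by library size, with TMM factors, and set to a common scale), 95% intervals of folds are Clopper-Pearson intervals, which are exact but hold counting error alone, and a p-value sets the reads of these libraries against each other, not the conditions. A count of 3 in a library corresponds to 1.66 to 1.74 CPM. The 51 members took 0.501% and 0.496% of the counts with the anti-miR132-3p shRNA, against 0.591% and 0.584% with the scramble shRNA.

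Complex I subunit messages were lower with the anti-miR132-3p shRNA, by a modest and rather uniform amount, and so were most other messages of like length and level. The summed level of the 37 subunits was 4495 and 4448 CPM in the anti-miR132-3p libraries, against 5361 and 5328 CPM in the scramble libraries. This was 1.2-fold lower (95% interval 1.17 to 1.22). Of the 37 subunits, 16 were called lower and 0 higher by edgeR's quasi-likelihood test at a Benjamini-Hochberg adjusted p under 0.05 over all 11427 genes tested. The median log2 fold change of the subunits was -0.25, with a range of -0.76 to 0.00, and 36 of 37 were below zero (33 of 37 with libraries scaled on genes of 300 to 1500 bases). The share of subunits called lower was 43.2%. Over all tested genes 10.4% were called lower and 13.5% higher, with a median log2 fold change of -0.003. In 31 of 37 subunits both anti-miR132-3p libraries were below both scramble libraries, against 30.6% of all tested genes. Since a pair counts as 1 sample, this adds no check across replicates, here or for the single genes below.

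Messages as short and as abundant as those of the subunits are the nearer comparison. Among tested genes with a transcript of 300 to 1500 bases, 14.8% were called lower, with a median of -0.12. Among those of this length that also lay within the range of levels of the subunits, 22.5% of 1479 were called lower, with a median of -0.14. With length taken from the principal transcript of each gene, as explained with the lengths below, 28.9% of 678 such genes were called lower, with a median of -0.21, 86.3% were below zero and 66.5% had both anti-miR132-3p libraries below both scramble libraries. With any 1 of the 4 libraries left out, 1 group has a single library and edgeR's quasi-likelihood test called 0 genes in the whole table, so that 0 of 37 subunits then bears on the design and not on them. In those fits the median of the subunits stayed at -0.23 to -0.26, against -0.003 to 0.006 for all tested genes. With each pair summed and a coefficient of variation of 0.1 assumed between pools the test called 0 subunits, with 3 at an unadjusted p under 0.05, and DESeq2 called 5. Over all tested genes DESeq2 called 274 lower and 481 higher. When libraries were scaled on genes of 300 to 1500 bases only, 7 subunits were called lower. All tested genes then gave 624 lower and 2497 higher calls in place of 1183 and 1540.

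**Figure D1:**
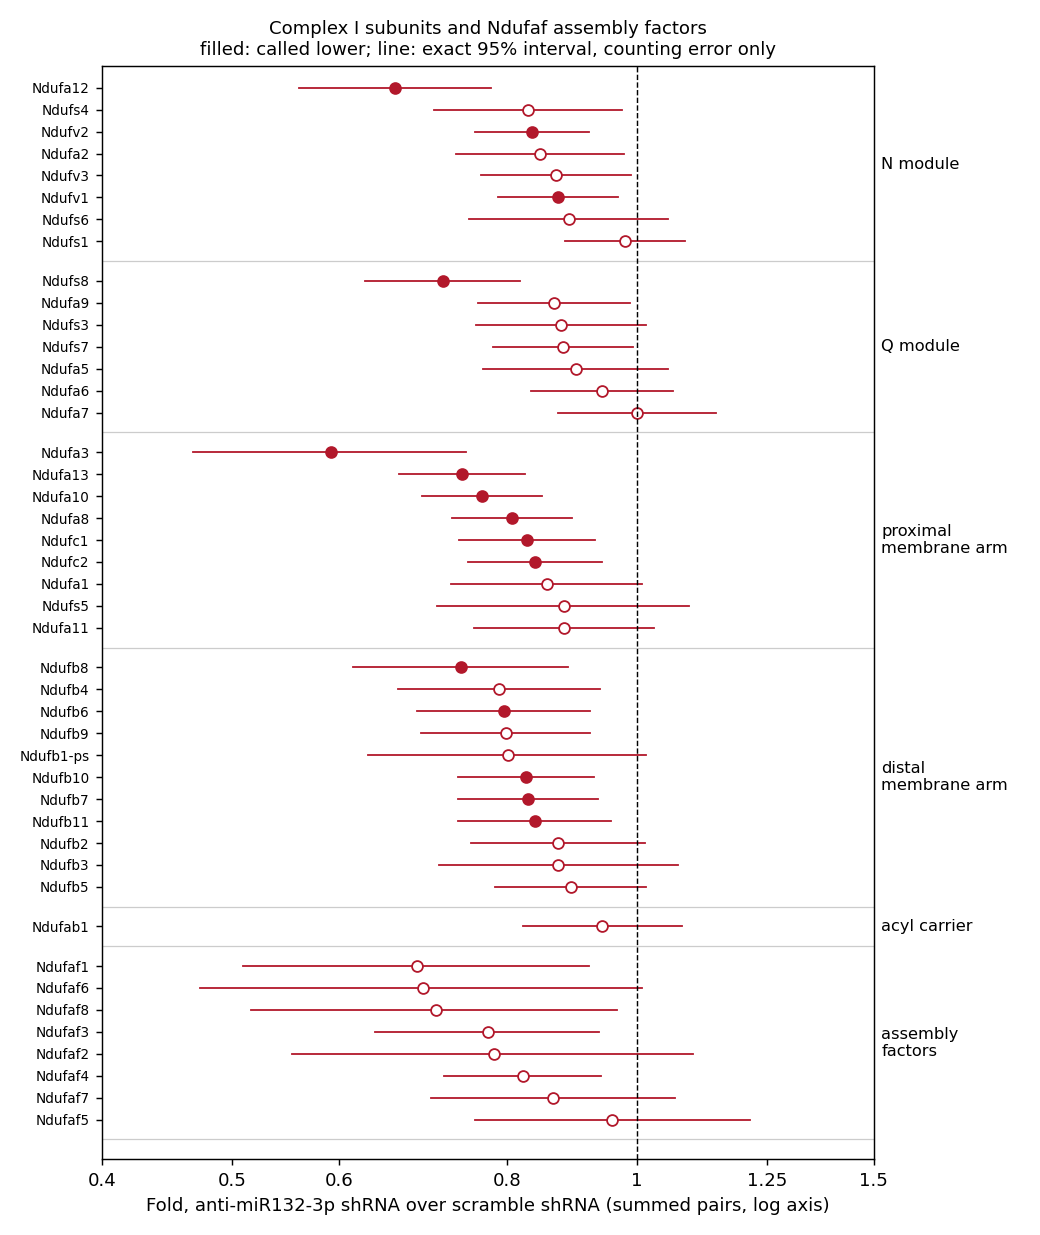
Fold of the anti-miR132-3p over the scramble shRNA for 36 of the 37 subunits, grouped by module, and the 8 Ndufaf assembly factors (horizontal log axis). Points are ratios of summed pairs, filled where edgeR called the gene lower, and lines are exact 95% intervals of counting error; nearly all points lie left of 1, from Ndufa3 (1.69-fold lower) to Ndufa7, whose groups were level.

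In the N module, which binds NADH, 3 of 8 subunits were called lower (37.5%, against 28.9% of short genes at the level of the subunits). The summed level of the module was 1079 CPM with the anti-miR132-3p shRNA, against 1253 CPM with the scramble shRNA, 1.16-fold lower (1.11 to 1.21). Ndufa12, an accessory subunit that takes the place of the assembly factor Ndufaf2 late in assembly, had 65.5 and 75.5 CPM in the anti-miR132-3p libraries, against 91.6 and 121.7 CPM in the scramble libraries. It was 1.51-fold lower (1.29 to 1.78), with an edgeR adjusted p of 0.00453. The anti-miR132-3p libraries lay below the scramble libraries, as in 66.5% of short genes at the level of the subunits. Ndufv2, a core subunit that carries an iron-sulfur cluster, had 211 and 218 CPM in the anti-miR132-3p libraries, against 257 and 257 CPM with the scramble shRNA, 1.2-fold lower (edgeR adjusted p = 0.00735). That call ended with scaling on short genes (edgeR adjusted p = 0.131) and with length corrected (0.201 on median, 0.128 on principal length), and the log2 fold change was above zero with GC content added (0.07 and 0.09). Ndufv1, the core subunit that binds NADH and the flavin cofactor FMN, had 197 and 206 CPM in the anti-miR132-3p libraries, against 228 and 234 CPM in the scramble libraries. Its difference of 1.15-fold (1.03 to 1.27) was just past the threshold (edgeR adjusted p = 0.0434).

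Ndufs1, the largest core subunit and the carrier of several iron-sulfur clusters, was nearly level. It had 219 and 199 CPM in the anti-miR132-3p libraries, against 216 and 210 CPM in the scramble libraries. The groups overlapped, and the fold of 1.02 lower had an interval of 0.921 to 1.13 (edgeR adjusted p = 0.790). The other N module subunits that missed the threshold, Ndufs4, Ndufs6, Ndufv3 and Ndufa2, lay between 1.12- and 1.21-fold lower.

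In the Q module, 2 of 8 subunits were called lower (25.0%, against 28.9% of short genes at the level of the subunits). The summed level of the module was 1130 CPM with the anti-miR132-3p shRNA, against 1326 CPM with the scramble shRNA, 1.17-fold lower (1.13 to 1.23). Ndufs8, which holds a pair of iron-sulfur clusters on the way to ubiquinone, had 109.6 and 109.7 CPM in the anti-miR132-3p libraries, against 150.4 and 155.5 CPM with the scramble shRNA. It was 1.40-fold lower (1.22 to 1.59), with an edgeR adjusted p of 0.00068.

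The core subunits Ndufs7 and Ndufs3 of this module missed the threshold. Ndufs7, which carries the last cluster of the chain, had 158 and 136 CPM in the anti-miR132-3p libraries, against 166 and 168 CPM in the scramble libraries (1.14-fold lower, edgeR adjusted p = 0.127). Ndufs3 had 91.6 and 108.0 CPM in the anti-miR132-3p libraries, against 116.5 and 110.7 CPM in the scramble libraries (1.14-fold lower, edgeR adjusted p = 0.202). For both genes the anti-miR132-3p libraries lay below the scramble libraries, as in 66.5% of short genes at the level of the subunits. Among the accessory subunits of the module, Ndufa7 was level at 124 CPM in both groups, and Ndufa5, Ndufa6 and Ndufa9 were 1.06- to 1.15-fold lower without a call.

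In the proximal part of the membrane arm, 6 of 9 subunits were called lower (66.7%, against 28.9% of short genes at the level of the subunits). The summed level of the 9 was 1103 CPM with the anti-miR132-3p shRNA, against 1380 CPM with the scramble shRNA, 1.25-fold lower (1.2 to 1.31). Ndufa3, a small accessory subunit of the membrane arm, had 36.5 and 31.4 CPM in the anti-miR132-3p libraries, against 61.0 and 53.7 CPM in the scramble libraries. It was 1.69-fold lower (1.34 to 2.14), the furthest of any subunit, with an edgeR adjusted p of 0.00244. Ndufa13, also known as GRIM-19, had 175 and 163 CPM in the anti-miR132-3p libraries, against 219.7 and 235 CPM in the scramble libraries, 1.35-fold lower (1.21 to 1.50; edgeR adjusted p = 0.00045).

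Ndufa10, a subunit with a fold like that of deoxynucleoside kinases, had 200.0 and 176.5 CPM in the anti-miR132-3p libraries, against 236.4 and 254.5 CPM in the scramble libraries. It was 1.30-fold lower (1.18 to 1.45; edgeR adjusted p = 0.00149). Ndufa8, a protein of the intermembrane space with paired cysteine motifs, had 184 and 195 CPM in the anti-miR132-3p libraries, against 236 and 233 CPM in the scramble libraries (1.24-fold lower, edgeR adjusted p = 0.0035). In all of these the anti-miR132-3p libraries lay below the scramble libraries, as in 66.5% of short genes at the level of the subunits. Ndufc1 and Ndufc2 were also called, at 1.21- and 1.19-fold lower, while Ndufa1, Ndufa11 and Ndufs5, at 1.13- to 1.17-fold lower, were not.

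In the distal part of the membrane arm, 5 of 11 subunits were called lower (45.5%, against 28.9% of short genes at the level of the subunits). The summed level of the 11 was 1043 CPM with the anti-miR132-3p shRNA, against 1260 CPM with the scramble shRNA, 1.21-fold lower (1.16 to 1.26). Ndufb8, an accessory subunit often used as a protein marker of assembled complex I, had 51.0 and 66.2 CPM in the anti-miR132-3p libraries, against 81.6 and 76.9 CPM in the scramble libraries. It was 1.35-fold lower (1.13 to 1.63; edgeR adjusted p = 0.0266). Ndufb6 had 85.8 and 98.1 CPM in the anti-miR132-3p libraries, against 121.0 and 110.1 CPM in the scramble libraries (1.26-fold lower, edgeR adjusted p = 0.0296). The remaining calls of the distal arm, Ndufb7, Ndufb10 and Ndufb11, were 1.19- to 1.21-fold lower. The uncalled subunits of this arm were 1.12- to 1.27-fold lower, so that called and uncalled members overlapped in size. Ndufab1, the acyl carrier protein that sits in both arms, was 1.06-fold lower with an interval of 0.926 to 1.22.

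The arms and classes of subunit differed little from each other. The membrane arm was 1.23-fold lower (1.19 to 1.27) with 11 of 20 called (55.0%), and the matrix arm 1.17-fold lower (1.13 to 1.2) with 5 of 16 called (31%). The 7 nuclear core subunits were 1.19-fold lower (1.14 to 1.23) with 4 called (57.1%), and the 30 accessory subunits 1.2-fold lower (1.17 to 1.23) with 12 called (40.0%). Of short genes at the level of the subunits, 28.9% were called lower. The intervals overlap in both pairs, and the differences between them were not tested.

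**Figure D2:**
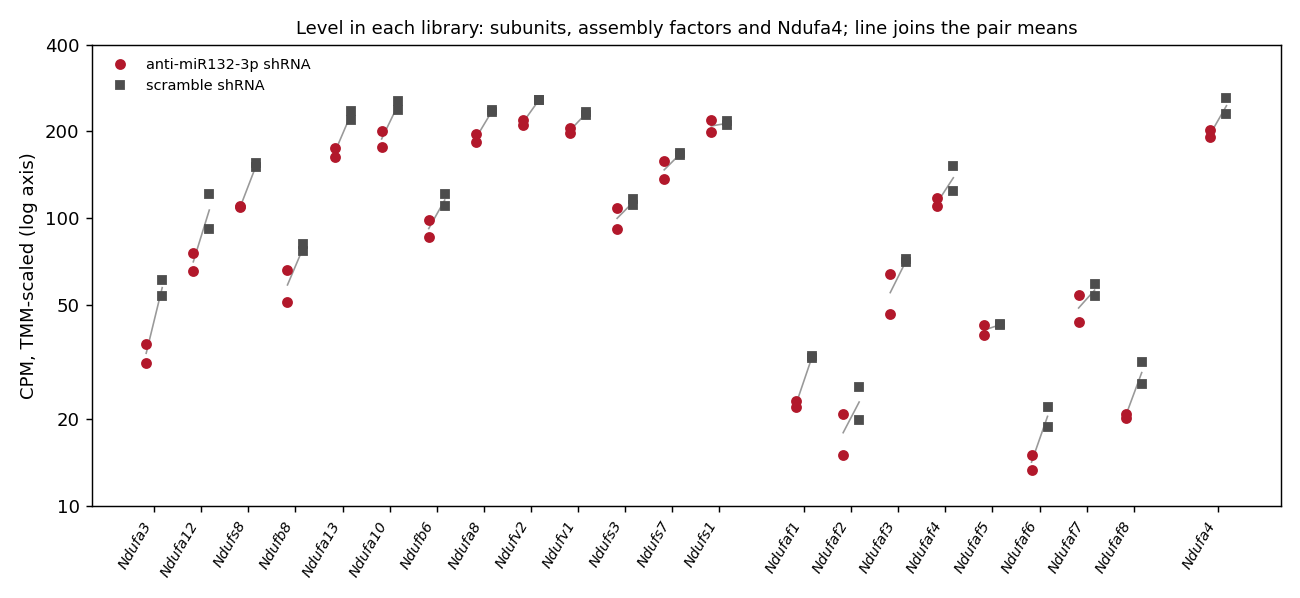
Level in each library, in CPM on a log axis, of 13 subunits, 8 assembly factors and Ndufa4 that are given by library. Circles are anti-miR132-3p libraries and squares scramble libraries; most pairs of circles lie below their squares, while Ndufs1, Ndufaf2 and Ndufaf7 overlap.

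All 8 Ndufaf assembly factors had a lower level with the anti-miR132-3p shRNA (7 of 8 with libraries scaled on genes of 300 to 1500 bases, where Ndufaf5 was higher), but edgeR's quasi-likelihood test called 0 of 8 in either direction. Their summed level was 336 and 332 CPM in the anti-miR132-3p libraries, against 423 and 404 CPM in the scramble libraries, 1.24-fold lower (1.15 to 1.34). The median log2 fold change was -0.36, with a range of -0.54 to -0.06. At an unadjusted p under 0.05 in that test there were 5 of 8 lower, against 16.9% of all tested genes. Principal transcripts of 6 of the 8 were within 300 to 1500 bases, and the share of short genes at this threshold is not given. At an adjusted p under 0.05, other tests called 3 of 8 (edgeR likelihood ratio test), 0 (limma-voom) and 0 (DESeq2). Other scalings in edgeR's quasi-likelihood test called 0 to 3. These genes are read less deeply than the subunits: the median count over the 4 libraries was 246 for the assembly factors and 874 for the subunits.

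Ndufaf1, part of the assembly complex that builds the proximal membrane arm together with Acad9, Ecsit and Tmem126b, had 23.2 and 22.1 CPM in the anti-miR132-3p libraries, against 32.7 and 33.2 CPM in the scramble libraries. It was 1.46-fold lower (1.09 to 1.96), just outside the threshold (edgeR adjusted p = 0.0515). Ndufaf4 and Ndufaf3, partners in building the Q module, came next. Ndufaf4 had 117 and 109.7 CPM in the anti-miR132-3p libraries, against 151.5 and 124.5 CPM with the scramble shRNA (1.22-fold lower, edgeR adjusted p = 0.0551). Ndufaf3 had 63.8 and 46.4 CPM in the anti-miR132-3p libraries, against 72.1 and 70.3 CPM with the scramble shRNA (1.29-fold lower, edgeR adjusted p = 0.0746). In all 3 genes the anti-miR132-3p libraries lay below the scramble libraries, as in 30.6% of all tested genes. Among tested genes of 300 to 1500 bases, at any level, this share was 41.3%. Ndufaf4 is longer than that, with a principal transcript of 3632 bases.

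Ndufaf5 and Ndufaf8 act together on Ndufs7, as known from human cells. Ndufaf8 had 20.3 and 20.9 CPM in the anti-miR132-3p libraries, against 26.6 and 31.5 CPM with the scramble shRNA (1.41-fold lower, interval 1.035 to 1.94, edgeR adjusted p = 0.0963). Ndufaf5 was nearly level at 39.4 and 42.4 CPM in the anti-miR132-3p libraries, against 42.7 and 42.6 CPM with the scramble shRNA (1.04-fold lower, interval 0.825 to 1.32). The intervals of these genes overlap, and the difference between them was not tested.

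Ndufaf7, an arginine methyltransferase, had 43.5 and 54.0 CPM in the anti-miR132-3p libraries, against 58.8 and 53.7 CPM with the scramble shRNA, and the groups overlapped (1.15-fold lower, edgeR adjusted p = 0.337). Ndufaf2, the paralog of Ndufa12, also overlapped, at 15.1 and 20.9 CPM in the anti-miR132-3p libraries, against 20.0 and 26.0 CPM with the scramble shRNA (1.28-fold lower, edgeR adjusted p = 0.323). Ndufaf6 was the least abundant member of the group, at 13.3 and 15.1 CPM in the anti-miR132-3p libraries, against 18.9 and 22.1 CPM with the scramble shRNA (1.44-fold lower, interval 0.992 to 2.11, edgeR adjusted p = 0.136).

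Ndufa4, named as a complex I subunit but found to be a component of cytochrome c oxidase (complex IV), had 191 and 202 CPM in the anti-miR132-3p libraries, against 261 and 230.2 CPM in the scramble libraries. It was called lower, by 1.25-fold (1.13 to 1.38; edgeR adjusted p = 0.00512). The call ended with length corrected (edgeR adjusted p = 0.112 on median and 0.901 on principal length), and the log2 fold change was above zero with GC content added (0.02 and 0.20). Its relative Ndufa4l2, known for induction by hypoxia, had 0 counts in both anti-miR132-3p libraries and 0 and 1 in the scramble libraries, too few to compare. Of the processed pseudogenes, Ndufab1-ps was tested and not called (edgeR adjusted p = 0.746). Ndufa11b, Ndufb4c and Ndufs6b had at most 1 count in any library.

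Per kilobase of principal transcript, the 37 subunits ranged from 21.7 (Ndufb2) to 252 CPM per kb (Ndufa6) with the anti-miR132-3p shRNA, with a median of 121. With the scramble shRNA they ranged from 24.9 (Ndufb2) to 279 CPM per kb (Ndufb7), with a median of 146. The order of the subunits was nearly the same in both groups (Spearman correlation 0.972 across 37 genes, which share libraries and transcript models). The low place of Ndufb2 depends on its transcript model, which is 4371 bases long by the principal transcript and 2413 by the median of its protein-coding transcripts.

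Fold change in these libraries moved with transcript length, and complex I messages are short. The principal transcript (the APPRIS choice in GENCODE M21) was used for length, because the median over a gene's protein-coding transcripts, the measure planned at first, counts fragment models: it gave 651 bases for Ndufs1, against 2661 by the principal transcript. Principal transcripts of the subunits were 419 to 4371 bases long, with a median of 908. Those of the assembly factors had a median of 1308.5 bases and those of all tested genes a median of 3046. Of the subunits 75.7% were within 300 to 1500 bases, against 16.0% of all tested genes. Across 11273 tested genes with a length, longer transcripts had higher log2 fold changes (Spearman correlation 0.28, a description across genes, which are not independent).

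**Figure D3:**
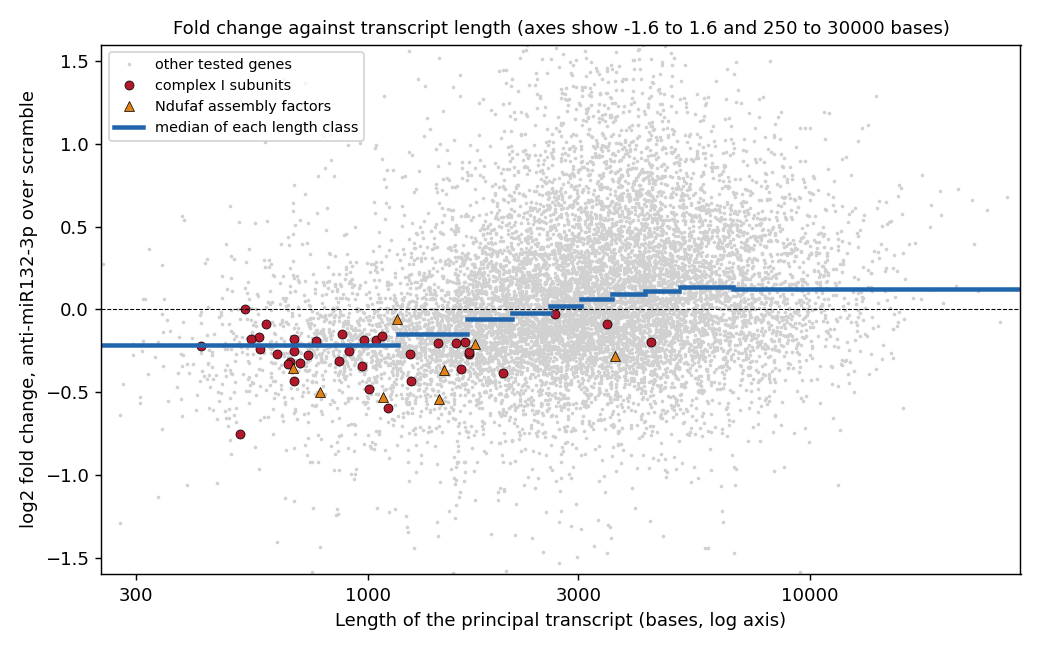
Log2 fold change of the anti-miR132-3p over the scramble shRNA (vertical axis) against the length of the principal transcript in bases (horizontal log axis) for tested genes, with subunits as circles and assembly factors as triangles. Blue bars are medians of 10 equal classes of the tested genes by length, from -0.21 in the shortest class to 0.12 in the longest; most complex I genes lie in the shortest classes, near or below those bars.

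The tested genes were cut into 10 classes of equal size by length, and in each class that held subunits their median lay below that of the class. The shortest class, of up to 1169 bases, held 25 subunits with a median of -0.25, against -0.21 for all its 1128 genes, and 10 of the 25 were called lower, against 14.8% of the genes. The next class held 6 subunits with a median of -0.24, against -0.15, of which 4 were called, against 16.7% of the genes. The class after it held 3 subunits with a median of -0.27, against -0.06, of which 2 were called, against 14.9%. The subunits with the longest transcripts, Ndufs1, Ndufab1 and Ndufb2, fell in later classes at -0.03, -0.09 and -0.20, against class medians of 0.02, 0.07 and 0.11. None of them was called in the fit without correction. Among the subunits alone, length and log2 fold change showed no rank relation (Spearman correlation -0.01, n = 37 genes).

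Adjusting each library for its own trend over length brought the subunit median of -0.25 to between -0.13 and -0.01, nearest to zero with the principal transcript, a measure chosen after seeing the data. With the principal transcript, 4 of 37 subunits were called lower and 1 higher, against 10.2% and 11.9% of all genes, and the median was -0.03, with 21 of 37 below zero. With GC content added, 6 were called lower and 0 higher, against 7.73% and 11.3%, and the median was -0.01. With the median transcript length, 6 were called lower and 0 higher, against 9.92% and 12.8%, with a median of -0.12. With GC content added to that, 11 were called lower and 1 higher, against 7.95% and 12.1%, with a median of -0.13. In all 4 corrected fits the median of all tested genes was between 0.00 and 0.04. A correction of this kind takes out whatever varies with length, and the source of the length trend was not tested.

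Only some subunits kept a lower level whichever way length was handled. Ndufa10 and Ndufa13 were called lower in all 5 fits, with and without correction. Under the correction for length on principal transcripts their log2 fold changes were -0.32 and -0.23, with edgeR adjusted p of 0.00376 and 0.0272. Ndufa12, Ndufa3 and Ndufs8 stayed below zero in all 5 fits, at -0.37, -0.44 and -0.24 under that correction, but missed the threshold there (edgeR adjusted p = 0.0501, 0.0522 and 0.0567). The calls of Ndufa8, Ndufb6, Ndufb7, Ndufb8, Ndufb10, Ndufb11, Ndufc1, Ndufc2 and Ndufv1 ended with length alone corrected on either measure. Of these, Ndufa8, Ndufb7, Ndufb10 and Ndufv1 were called lower with GC content and median length, and Ndufv1 also with GC content and principal length. Among the 5 fits, Ndufb2 was called lower only with length on principal transcripts (log2 -0.29, edgeR adjusted p = 0.0370). Ndufs7 was called lower only with GC content and median length (log2 -0.30, edgeR adjusted p = 0.0139). In all, 14 of 37 subunits were below zero in every one of the 5 fits. Those fits use the same reads, and the share of all tested genes below zero or called lower in every fit is not given. In single corrected fits, 5115 to 5587 of 11273 tested genes were below zero.

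Corrected values also pointed the other way for single genes. Ndufa7 was called higher with length on principal transcripts (log2 0.31, edgeR adjusted p = 0.0391) and Ndufs1 with GC content and median length (0.23, edgeR adjusted p = 0.0235), and neither was called in the other fits. The median length of Ndufs1, 651 bases, counts fragment models. With its principal transcript the log2 fold change was -0.07, and 0.10 with GC content added. The assembly factors had medians of -0.20 to -0.27 in the corrected fits, and 5 of 8 were below zero in all 5 fits. For this count too, the share of all tested genes is not given. Ndufaf4 was called lower with length alone on either measure, with an edgeR adjusted p of 0.0118 on principal transcripts and 0.0426 on median length.

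**Figure D4:**
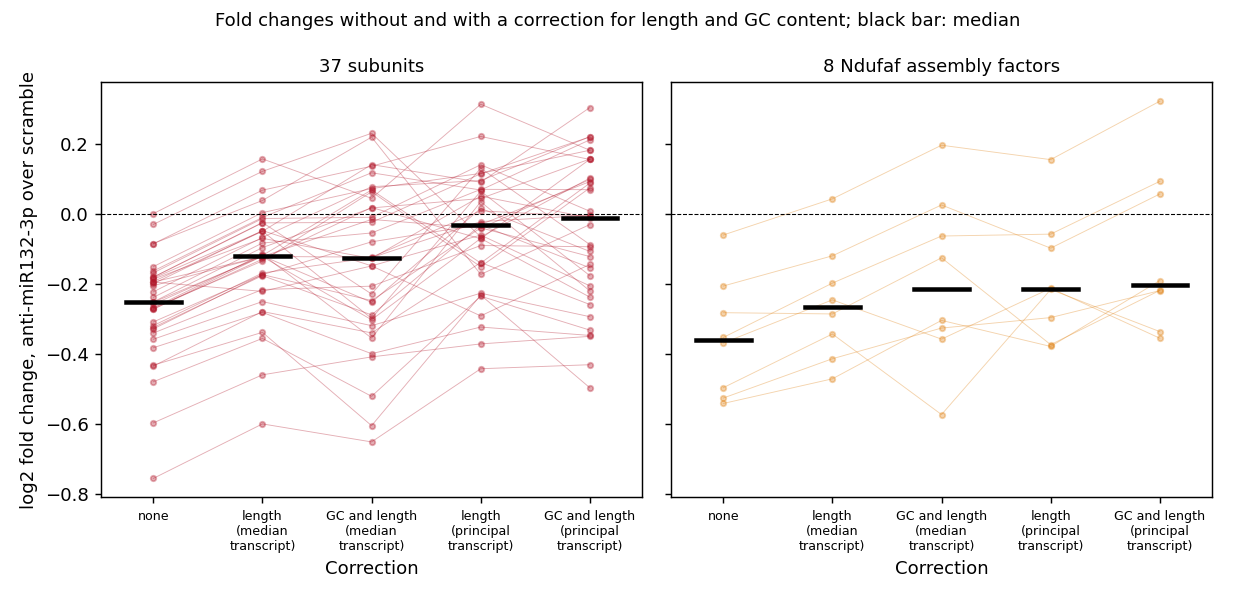
Log2 fold changes of the 37 subunits (left) and the 8 Ndufaf assembly factors (right) without correction and with 4 corrections for length or for GC content and length (horizontal axis). Thin lines join a gene's values and black bars are medians; the subunit median goes from -0.25 without correction to -0.03 and -0.01 with the principal transcript, and the assembly factor median from -0.36 to -0.21 and -0.20.

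The rest of the pathway was read from lists of genes by their known role. Complex I subunits encoded in mitochondrial DNA were nearly level, at 1808 CPM with the anti-miR132-3p shRNA, against 1871 CPM with the scramble shRNA (1.03-fold lower, interval 0.9995 to 1.07). Of the 5 that were tested, edgeR's quasi-likelihood test called 0, with 1 lower at an unadjusted p under 0.05, and the edgeR likelihood ratio test, limma-voom and DESeq2 called 0 as well. The genes mt-Nd3 and mt-Nd4l were listed at 0 counts in all 4 libraries. mt-Nd1 had 887 and 900 CPM in the anti-miR132-3p libraries, against 936 and 929 CPM with the scramble shRNA. mt-Nd4 had 253 and 265 CPM in the anti-miR132-3p libraries, against 246 and 226 CPM with the scramble shRNA. In the fits corrected for length, described above, 1 of the 5 was called higher with median length (12.8% of all genes, list median -0.01), 2 with GC content and median length (12.1%, 0.15), 2 with principal length (11.9%, 0.11) and 4 with GC content and principal length (11.3%, 0.27).

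Of 12 other assembly factors, edgeR's quasi-likelihood test called 0 in either direction, 9 were below zero and the median log2 fold change was -0.12. Their summed level was 566 CPM with the anti-miR132-3p shRNA, against 607 CPM with the scramble shRNA, 1.07-fold lower (1.01 to 1.14). Among the partners of Ndufaf1, Acad9 had 88.1 and 92.3 CPM in the anti-miR132-3p libraries, against 92.1 and 93.5 CPM with the scramble shRNA, Ecsit was 1.16-fold lower (0.956 to 1.41) and Tmem126b 1.18-fold lower (0.994 to 1.40). Both intervals include a level equal in the groups. At an unadjusted p under 0.05 there was 1 lower and 0 higher among the 12, and the edgeR likelihood ratio test, limma-voom and DESeq2 also called 0.

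Nuclear subunits of complexes II to V were also lower. Of 38 tested, 27 were called lower and 0 higher (10.4% and 13.5% of all tested genes, and 28.9% lower among short genes at the level of the complex I subunits), with a median of -0.27, and the summed level was 7661 CPM with the anti-miR132-3p shRNA, against 9065 CPM with the scramble shRNA, 1.18-fold lower (1.16 to 1.2). With length on principal transcripts corrected, 9 were called lower and 2 higher (10.2% and 11.9% of all genes), with a median of -0.03. With GC content added, 5 were called lower and 3 higher (7.73% and 11.3%), with a median of -0.03. On median length, 12 were called lower and 0 higher (9.92% and 12.8%), with a median of -0.13. With GC content added to that, 10 were called lower and 0 higher (7.95% and 12.1%), with a median of -0.14. A difference between complex I and the other complexes was not tested.

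The promoters of the members were also searched for short stretches of sequence, as set out in the plan of the analysis. RefSeq (GRCm38.p6) gave a window from 250 bases before to 50 bases after the start of transcription for 33 subunits, 7 assembly factors and 27025 genes in all. Windows were searched on both strands for cores of 3 factors known to act at promoters of respiratory genes, namely GCATGCG for NRF1, AAGATGG for YY1 and CGGAAG for ETS factors such as GABPA. The NRF1 core is nearly its own reverse complement, so 1 site can match on both strands, and an ETS core can run into a YY1 core, since one ends and the other begins with AAG. The NRF1 core was in 3 subunit promoters (9.09%) and 2 of the assembly factors (28.6%), against 4.01% of all promoters. The ETS core was in 9 (27.3%) and 6 (85.7%), against 18.8%. The YY1 core was in 7 (21.2%) and 1 (14.3%), against 7.28%. Any of the 3 was in 54.5% of subunit promoters and 85.7% of assembly factor promoters, against 26.8%.

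The YY1 core is shown because all 7 subunit matches lay on the strand of the gene and 23 to 39 bases after the start. A match on the gene's strand anywhere in the 50 bases after the start was thus held by 7 of 33 subunit promoters. Of 27025 promoters in all 416 held one (1.54%), or 416 of the 1967 with a match. The strand and the stretch were chosen after these 7 matches were seen, which widens the contrast with all promoters. It is a description and no test. The search as planned, over both strands and the whole window, gave 21.2% against 7.28%. Each line is at most 30 bases of the promoter window on the gene's strand, 5′ to 3′, with the core in capitals. The lines for Ndufb8, Ndufs4 and Ndufs6 end where the window ends.
Ndufa3: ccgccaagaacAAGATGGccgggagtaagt
Ndufa9: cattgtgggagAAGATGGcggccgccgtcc
Ndufb8: cggagaaggtgAAGATGGctgcc
Ndufc1: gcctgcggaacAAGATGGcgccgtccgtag
Ndufs4: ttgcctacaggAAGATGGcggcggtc
Ndufs6: gggtcaccggcAAGATGGcggcggtgct
Ndufs7: aggccgaggccAAGATGGcggcgctggcgg

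The Ndufa3 window is chr7:3617123-3617422 (+ strand) and the Ndufb8 window chr19:44555393-44555692 (- strand). Of the 7 subunits with this core 3 were called lower, with a median of -0.27, and of the 26 without it 12, with a median of -0.24. Of the 9 with the ETS core 4 were called, and of the 24 without it 11. Among the 3 subunits with the NRF1 core, Ndufa11, Ndufa6 and Ndufa8, 1 was called. The differences between these small groups were not tested.

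Sites for the targeted microRNA were rare in these messages. A match to the seed of miR-132-3p, written GACTGTT in the message, was found in the 3′ UTR of 2 of 44 subunits and assembly factors with an annotated 3′ UTR (4.55%), against 14.2% of 10420 tested genes. The members' 3′ UTRs are also shorter, with a median of 219 bases, against 1350 for the tested genes. Both sites are shown with their surroundings, from GENCODE M21 transcripts, because no other member had one, and the match is in capitals.
Ndufa12: gaccgcagtgaaGACTGTTcctgcacttcc
Ndufab1: gaaaggcagcatGACTGTTggaaatcaaag

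The site of Ndufa12 (chromosome 10) begins at base 14 of a 3′ UTR of 585 bases, and that of Ndufab1 (chromosome 7) at base 1021 of 2947. MicroRNAs lower the level or the translation of the messages they pair with. Ndufa12 was among the members called lower, and Ndufab1 was 1.06-fold lower without a call. A match of letters is a description and does not show that the microRNA binds there.

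Some members share sequence with other genes, so that their counts are less certain. Of the 45 subunits and assembly factors, 5 had at least 20% of their 50-base stretches in other genes, namely Ndufa12, Ndufs3, Ndufb4, Ndufb9 and Ndufs5. For Ndufa12, which was called, this was 26.2% with the processed pseudogene Gm15920. Exons of 19 of the 45 overlapped another gene, 6 of them called, and the strand setting of the counting is not given in the sources used here. Ndufa13 overlaps Tssk6 by 375 bases on the opposite strand, while Ndufa10 and Ndufs8 overlap no gene.

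Markers of other retinal cells also differed between the groups, and in bulk libraries fewer cells of a type and less RNA per cell cannot be told apart. Markers of ganglion cells summed to 2196 and 2141 CPM in the anti-miR132-3p libraries, against 2001 and 2008 CPM in the scramble libraries, with 3 of 11 tested called higher and 2 lower. Markers of rods, cells dense in mitochondria, summed to 16.2 and 13.4 CPM in the anti-miR132-3p libraries, against 82.7 and 73.6 CPM with the scramble shRNA, and 3 of 3 tested were called lower. The rod markers Gnat1 and Rcvrn were listed at 0 in all libraries. Cone markers summed to 4.64 and 1.16 CPM in the anti-miR132-3p libraries, against 15.0 and 22.7 CPM with the scramble shRNA.

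Amacrine markers summed to 2357 and 2305 CPM in the anti-miR132-3p libraries, against 2136 and 2173 CPM in the scramble libraries, with Gad1, Slc32a1 and Tfap2b listed at 0 throughout. Of the 4 tested, Gad2, Slc6a9 and Tfap2a were called higher, up to a log2 fold change of 1.44 for Slc6a9, while Pax6, which holds most of the sum, was at -0.02. Microglial markers summed to 15.1 and 22.1 CPM in the anti-miR132-3p libraries, against 1.67 and 1.11 CPM with the scramble shRNA. Müller glia markers summed to 105 CPM in the anti-miR132-3p libraries, against 109 CPM in the scramble libraries, and bipolar markers to 117 CPM in the anti-miR132-3p libraries, against 104 CPM in the scramble libraries. Astrocyte markers, Gfap and Pax2, summed to 12.2 and 15.1 CPM in the anti-miR132-3p libraries, against 21.6 and 18.3 CPM in the scramble libraries. The summed levels of rod, cone and astrocyte markers moved with the complex I messages. Those of ganglion cell, amacrine and microglial markers moved the other way. Single ganglion cell markers were mixed: 6 of the 11 tested were below zero, with a median log2 fold change of -0.06. No cone or microglial marker passed the filter on low counts. Cone markers had 10 counts in the anti-miR132-3p pair and 68 in the scramble pair, and microglial markers 64 and 5. Of the astrocyte markers only Gfap was tested, without a call, and the sum was 1.46-fold lower (0.999 to 2.16). The part of these cells in the lower level of complex I messages was not tested.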

How the data were processed

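Per the labels' protocols, libraries of polyA-selected RNA were read in pairs of 100 bases. The authors deposited raw read counts for each gene, as whole numbers. Per the submitters' processing notes, reads were handled with Trimmomatic 0.39, SAMtools 1.10 and HISAT2 2.2.1 on the build GRCm39, and Cuffdiff, Cuffnorm and Cufflinks are also named. The strand setting, the counting tool and the release of the annotation are not given in the sources used. Symbols, lengths and sequences came from GENCODE M21 and RefSeq tables of GRCm38, an older build, so no coordinates of the files are given, and 51486 identifiers had a symbol.

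Genes passing filterByExpr (11427) were compared with edgeR 4.0.16 in R 4.3.3 (TMM scaling, glmQLFit with legacy set to FALSE, glmQLFTest, group as the only term, Benjamini-Hochberg adjustment over all tested genes). DESeq2 1.42.0 and limma 3.58.1 served as alternatives, and Python 3.11.15 for sequences and plots. Folds are ratios of summed counts over scaled library sizes. Corrections for length and GC content used splines with 4 degrees of freedom per library, centred on zero, as offsets. The fit was tested on simulated data with sampling noise alone. These held no spread between pools, so they bear on counting error and not on the conditions. The use of the principal transcript was chosen after its effect could be seen, because median lengths included fragment models.

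Members and lists were chosen with earlier results of these data known. Values by library are given for the 10 called members with the lowest log2 fold change, nuclear core subunits, Ndufaf genes, Ndufa4 and Ndufa4l2, and other members by range and counts. Some of these values are not reported here, though the genes remain in the counts and sums. No p-value was computed over the members. Alternatives covered scaling, filters, tests, thresholds, left-out libraries, a replicate block, length and GC content, and an assumed spread between pools.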

Additional observations from a re-analysis of the deposited data

How the results depend on the processing

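These values limit how firmly the lower level of complex I messages can be read. For all tested genes (1540 called higher, 1183 lower), scaling on genes of 300 to 1500 bases gave 2497 and 624, no low-count filter 1 and 2, DESeq2 481 and 274, an assumed coefficient of variation of 0.1 gave 415 and 47, one of 0.2 gave 43 and 6, and an adjusted p under 0.01 gave 856 and 547. For the subunits (16 lower), the count was 10 with library totals only, 7 with scaling on short genes, 0 with no filter, 5 with DESeq2, 6 with the length correction, 4 with length on principal transcripts, 6 with GC content and length on principal transcripts, 0 at either assumed coefficient of variation and 8 at an adjusted p under 0.01. With 1 library left out, calls were 0 to 0 for all genes lower, all genes higher and subunits lower, and the smallest adjusted p of a subunit was 0.190 to 0.201. Calls of subunits higher (0) were 1 with GC content and length and 1 with length on principal transcripts. Assembly factors called lower (0) were 2 with RLE factors, 3 with upper-quartile factors, 2 with a filter of 10 CPM, 3 with the likelihood ratio test, 1 with length on either measure and 3 with the replicate block. The replicate numbers did not pair the libraries (r = 0.0126 across 11427 genes), and with the replicate block 18 subunits were called lower.

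The subunit median of -0.25 was -0.27 with upper-quartile factors, -0.22 with library totals, -0.13 with scaling on short genes, -0.12 with length, -0.13 with GC content and length, and -0.032 and -0.012 with the same on principal transcripts. It was -0.23 to -0.26 with 1 library left out. The assembly factor median of -0.36 was -0.24 with scaling on short genes, -0.27 with length, -0.22 with GC content and length, -0.21 and -0.20 with the same on principal transcripts, and -0.38 to -0.45 with 1 library left out. The fold of the summed subunits, 0.837, was 0.909 with scaling on short genes, 0.916 with length, 0.903 with GC content and length, and 0.961 and 0.952 with the same on principal transcripts. Scaling on short genes moved the median of all tested genes to 0.12 on the log2 scale.

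Single genes turned positive in log2 fold change: Ndufs1 with scaling on short genes (0.089), length (0.12), GC content and length (0.23), and GC content and principal length (0.10), with a range of -0.097 to 0.037 over left-out libraries, positive without anti-miR132-3p replicate 2, and Ndufaf5 with scaling on short genes (0.059), length (0.043), GC content and length (0.20), principal length (0.15) and GC content and principal length (0.32). With GC content and length, Ndufa4 was at 0.020, Ndufaf7 at 0.025 and Ndufv2 at 0.068. With GC content and principal length, Ndufa4 was at 0.20, Ndufaf2 at 0.093, Ndufaf7 at 0.056, Ndufb6 at 0.092 and Ndufv2 at 0.088. With principal length alone, Ndufs3 was at 0.050 and Ndufs7 at 0.064. The causes of these changes were not tested.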
